A study of Mus musculus with 12 samples.

Results

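The 10 genes described here code for subunits of NF-kB and for proteins that restrain or modulate it. They were taken by gene symbol from the 31053 genes listed for each library, with earlier results of these data known. Of the 10, 4 were classed as subunits (Nfkb1, Nfkb2, Rel and Relb) and 6 as inhibitors or IkB-family proteins (Nfkbia, Nfkbie, Nfkbiz, Nfkbid, Bcl3 and Tnfaip3). The series asked how the way a mouse brain is taken apart alters the RNA of the myeloid cells recovered from it. Live CD45+ CD11b+ cells were sorted from whole brains of 12 male C57BL/6J mice at postnatal day 90, and each library held the cells of 1 animal. DNC-NONE (replicates 1, 2 and 3) was cold Dounce homogenization, a mechanical method, and DNC-INHIB (4, 5 and 6) was the same with a cocktail of the transcription inhibitors actinomycin D and triptolide and the translation inhibitor anisomycin. ENZ-NONE (4, 5 and 6) was a warm enzymatic digestion without the cocktail, and ENZ-INHIB (1, 2 and 3) was that digestion with it. The inhibitors were in the perfusion, dissection and dissociation solutions of the INHIB groups, with anisomycin added after the perfusion. All 4 groups shared the strain, sex, age, density step and cell sort. The labels give 2 batches, with ENZ-NONE replicates 4 and 5, ENZ-INHIB replicate 1, DNC-INHIB replicate 4 and DNC-NONE replicates 1 and 2 in batch 1 and the other 6 libraries in batch 2.

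NF-kB is a family of dimeric transcription factors that in resting cells is held in the cytoplasm by IkB proteins. Signals from Toll-like, cytokine and other receptors lead to destruction of the IkB proteins, the dimers enter the nucleus, and among the genes they switch on are those of their own inhibitors, which closes a feedback loop. In microglia, the resident macrophages of the brain, this pathway is best known for driving cytokine and chemokine genes.

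The promoter letters of the members are shown first, since inhibitor genes with NF-kB sites near their start are the textbook form of that loop. RefSeq promoter windows on GRCm38.p6, each 300 bases long (250 before to 50 after a start site), were available for 7 of the 10 members. The windows of Nfkbiz, Nfkb1 and Relb were not analysed here. The NF-kB decamer consensus, searched on both strands, was found in at least 1 window of all 7 members, 5 inhibitors and 2 subunits, and in 9 of their 12 windows. Over all genes it was found in 8.46% of 32851 windows and for 9.55% of gene symbols. Each line gives 30 bases on the strand of the gene, 5′ to 3′, with the matched letters in capitals. The Nfkb2 and Rel runs each join overlapping matches. Further matches of Tnfaip3 and Nfkb2 are not printed. Both Nfkbid matches lie before a start site inside the gene, at 30422406, and the window of its first start, at 30421731, held none.
Nfkbia, chr12:55492657-55492686, minus strand, outside the gene: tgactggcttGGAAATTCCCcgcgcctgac
Nfkbid, chr7:30422170-30422199, plus strand, intron: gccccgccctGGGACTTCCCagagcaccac
Nfkbid, chr7:30422215-30422244, plus strand, intron: gggccgaacaGGAATTCCCCgtgcgcgggg
Nfkbie, chr17:45555584-45555613, plus strand, outside the gene: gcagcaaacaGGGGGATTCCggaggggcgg
Tnfaip3, chr10:19015403-19015432, minus strand, part in an exon: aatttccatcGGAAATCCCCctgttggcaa
Bcl3, chr7:19822734-19822763, minus strand, exon: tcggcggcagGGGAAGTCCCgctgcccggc
Nfkb2, chr19:46304688-46304717, plus strand, exon: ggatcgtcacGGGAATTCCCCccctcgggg
Rel, chr11:23771042-23771071, minus strand, outside the gene: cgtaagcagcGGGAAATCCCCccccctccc
These letters matched in inhibitor and subunit genes alike, and a match describes the sequence without showing that a factor binds there.

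The deposited matrices held 2118143 to 3654465 UMIs (unique molecular identifiers, each standing for 1 captured RNA molecule) per library. After filters on cells, 18826 of 28426 cells were kept, 853 to 2185 per library, with a median of 1153 to 1572 UMIs per cell. Between pairs of libraries, 0 to 12 cell barcodes were shared. The label of myeloid brain cells was checked on markers: all 10 microglial markers were detected, at a summed 37414 to 42177 CPM in every library (CPM are UMIs scaled to a library total of 1000000, with edgeR's TMM factors), and microglia-like clusters held 17813 cells. The neutrophil markers summed to between 10.8 and 4053 CPM in DNC-NONE and to between 2.79 and 19.4 CPM in ENZ-NONE, where Mmp9 and Ly6g were at 0. Their sums ran from 8.34 to 397 CPM in DNC-INHIB and from 1.58 to 526 CPM in ENZ-INHIB, where Retnlg was at 0. All 10 lymphocyte markers were detected in ENZ-NONE, at a summed 51.5 to 87.9 CPM, while 4 to 6 of the 10 were detected in each other group, at 48.1 to 80.8 CPM, with Cd3e, Cd3d, Trbc2 and Cd79a at 0. The part of these cells in the results was not tested, other than by the fit on microglia-like cells alone given with the clusters. ENZ-NONE replicate 6 stood furthest from its group. In it, a microglia-like cluster led by Adamts1, Ier2, Ccl12 and Ccl2 (cluster 4) held 45.5% of the cells, against 1.15% to 14.5% in the other 11. DNC-NONE was not uniform either, with 14.5%, 1.41% and 1.15% of cells in that cluster in replicates 1, 2 and 3. DNC-NONE replicate 1 was also the highest of its group for Nfkbia, Nfkbiz, Nfkbid, Tnfaip3 and Bcl3, and the lowest for Nfkbie. The main results for the members that rest on ENZ-NONE replicate 6 are given with and without it.

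Among the 10 genes, Nfkbid was higher after warm digestion without inhibitors than in each other preparation, Nfkbiz had differences of like size that missed the threshold, and the subunit genes differed by at most 0.29 on the log2 scale. All 10 passed the filter on low counts, and 9882 genes were tested with edgeR's quasi-likelihood test on UMIs summed per library. A gene was called at an adjusted p under 0.05 and an absolute log2 fold change of at least 0.58. Against DNC-NONE, 1 of the 10 members was called, beside 0.465% of all genes tested. Against ENZ-INHIB, 1 of the 10 was called, beside 0.293% of all genes. Against DNC-INHIB, 1 of the 10 was called, beside 0.739% of all genes. In each case the gene was Nfkbid and the direction was higher in ENZ-NONE. These 3 comparisons share the ENZ-NONE libraries and are therefore not independent. In sums over a library, a larger number of cells carrying the RNA and more RNA per cell cannot be told apart.

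Nfkbid (ENSMUSG00000036931, chr7:30421732-30428746, plus strand, GRCm38) codes for IkBNS, a nuclear IkB-family protein that modulates which NF-kB dimers act on a promoter. It was read at 23.7, 17.0 and 44.5 CPM in ENZ-NONE replicates 4, 5 and 6. In ENZ-INHIB it was read at 11.05, 8.76 and 10.3 CPM, in DNC-NONE at 9.56, 3.74 and 8.32 CPM and in DNC-INHIB at 5.596, 7.96 and 6.87 CPM. All 3 ENZ-NONE libraries lay above the other 9, which holds for 1.04% of all genes tested. Group means were 28.4 ± 14.3 CPM (SD, n = 3) for ENZ-NONE, 10.0 ± 1.17 for ENZ-INHIB, 7.21 ± 3.07 for DNC-NONE and 6.81 ± 1.18 for DNC-INHIB. Nfkbid rose by a log2 fold change of 1.90 against DNC-NONE (95% interval 1.22 to 2.59, edgeR adjusted p = 0.00539). The rise was 1.57 against ENZ-INHIB (0.95 to 2.19, edgeR adjusted p = 0.0186). It was 2.10 against DNC-INHIB (1.45 to 2.74, edgeR adjusted p = 0.000865). Nfkbid thus stood 3.74-fold, 2.96-fold and 4.28-fold higher in ENZ-NONE than in DNC-NONE, ENZ-INHIB and DNC-INHIB. Within batch 1 the difference in mean log2 CPM from DNC-NONE was 1.67 and within batch 2 it was 2.36. From ENZ-INHIB it was 0.84 and 2.18, and from DNC-INHIB it was 1.76 and 2.52. Batch 2 held 1 ENZ-NONE library, replicate 6. Without that library, Nfkbid kept its call against DNC-NONE (1.39) and DNC-INHIB (1.58) and lost it against ENZ-INHIB (edgeR adjusted p = 0.135). That last call was also lost without ENZ-INHIB replicate 1, 2 or 3 (edgeR adjusted p = 0.0756, 0.259 and 0.160). With only the libraries of the 2 groups in the fit, the log2 values of Nfkbid were 1.90 against DNC-NONE and 1.58 against ENZ-INHIB, and neither was called (edgeR adjusted p = 0.243 and 0.217). In cells thinned to 1000 UMIs the value against ENZ-INHIB was 1.24 and not called (edgeR adjusted p = 0.0673).

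Nfkbiz (ENSMUSG00000035356, chr16:55811375-55838899, minus strand) codes for IkB-zeta, a nuclear IkB-family protein needed for a late subset of cytokine genes. In ENZ-NONE it was read at 13.5, 17.0 and 46.8 CPM. The range was 4.57 to 10.0 CPM in ENZ-INHIB, 2.80 to 7.17 in DNC-NONE and 4.197 to 6.24 in DNC-INHIB. As for Nfkbid, the 3 ENZ-NONE libraries lay above the other 9, and replicate 6 was far above replicates 4 and 5. Nfkbiz was not called. Its log2 difference was 2.38 against DNC-NONE (95% interval 1.13 to 3.63, edgeR adjusted p = 0.142), 1.82 against ENZ-INHIB (0.73 to 2.91, edgeR adjusted p = 0.458) and 2.32 against DNC-INHIB (1.19 to 3.44, edgeR adjusted p = 0.0801). Without ENZ-NONE replicate 6 the values were smaller, 1.55 and 1.48 against DNC-NONE and DNC-INHIB, yet past the threshold (edgeR adjusted p = 0.0354 and 0.0285). Against ENZ-INHIB without that library the difference was 0.99 and not called. Without ENZ-NONE replicate 4, Nfkbiz was called in all 3 comparisons (2.71, 2.15 and 2.64, edgeR adjusted p = 0.00698, 0.0203 and 0.00319). DESeq2 on all libraries called it in all 3 as well (2.40, 1.77 and 2.30, DESeq2 adjusted p = 0.000255, 0.0112 and 8.76e-05). Within batch 1 and within batch 2, mean log2 CPM of Nfkbiz differed by 1.65 and 3.45 from DNC-NONE, by 0.58 and 2.80 from ENZ-INHIB and by 1.75 and 2.93 from DNC-INHIB. The study's list of myeloid activation genes, chosen on these same samples, holds Nfkbiz and Nfkbid, so their direction here is not independent evidence for that list.

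**Figure D1:**
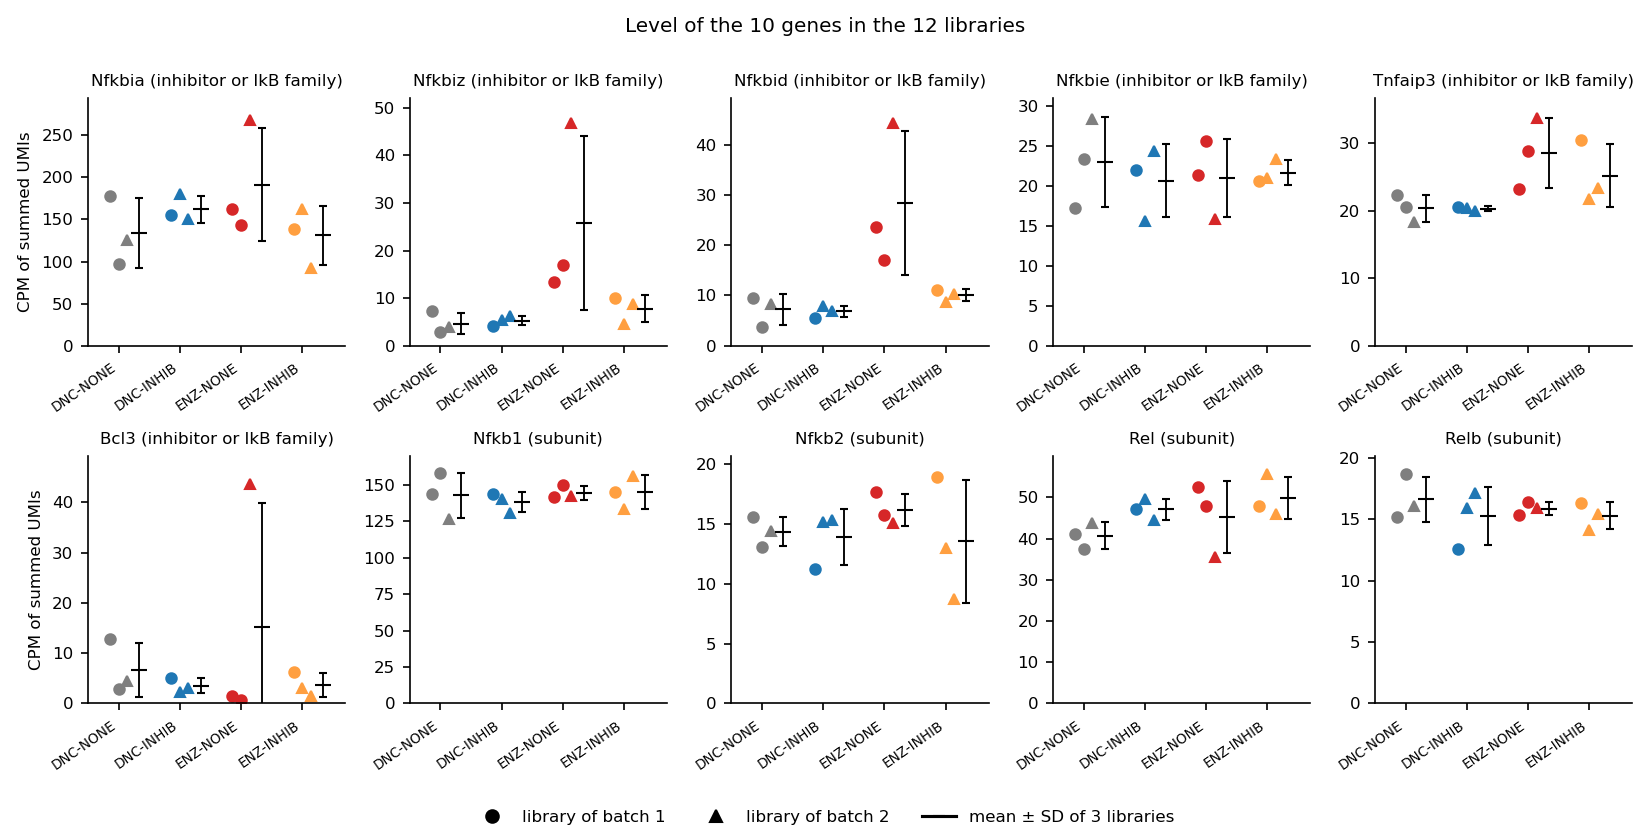
Level of each of the 10 genes in CPM of summed UMIs (y axis, from 0) in the 4 preparations (x axis), 1 point per library, with circles for batch 1, triangles for batch 2 and the black mark and bars for the mean ± SD of 3 libraries (the Bcl3 bar is drawn down to 0). The 3 red ENZ-NONE points of Nfkbiz and Nfkbid sit above all others, while those of the 4 subunits fall among them.

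Nfkbia (ENSMUSG00000021025, chr12:55489410-55492647, minus strand) codes for IkB-alpha, the inhibitor that is degraded on stimulation and made again within the feedback loop. It was read at 163, 143 and 269 CPM in ENZ-NONE replicates 4, 5 and 6. In DNC-NONE it stood at 179, 97.1 and 125 CPM, in DNC-INHIB at 156, 180 and 150 CPM, and in ENZ-INHIB at 138, 162 and 92.7 CPM. ENZ-NONE replicate 6 was the highest of the 12, and the other ENZ-NONE libraries lay inside the range of the remaining groups. The log2 difference was 0.50 against DNC-NONE (95% interval -0.22 to 1.22), 0.56 against ENZ-INHIB (-0.15 to 1.28) and 0.25 against DNC-INHIB (-0.45 to 0.96), and none was called. Without ENZ-NONE replicate 6 the 3 values for Nfkbia were 0.16, 0.23 and -0.08. Within batch 1, mean log2 CPM of Nfkbia in ENZ-NONE differed from DNC-NONE by 0.21, and within batch 2 by 1.10.

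Tnfaip3 (ENSMUSG00000019850, chr10:19000910-19015657, minus strand) codes for a ubiquitin-editing enzyme that cuts off signalling upstream of the IkB proteins. Its ENZ-NONE levels were 23.2, 28.8 and 33.7 CPM. The Dounce groups gave 22.3, 20.5 and 18.3 CPM without inhibitors and 20.5, 20.5 and 19.97 CPM with them. ENZ-INHIB gave 30.5, 21.7 and 23.4 CPM and overlapped ENZ-NONE. All 3 ENZ-NONE libraries lay above the 6 Dounce libraries, as they did for 2.61% of all genes tested, and no difference was called. The log2 value of Tnfaip3 was 0.48 against DNC-NONE (95% interval 0.10 to 0.87, edgeR adjusted p = 0.429), 0.50 against DNC-INHIB (0.14 to 0.86, edgeR adjusted p = 0.262) and 0.21 against ENZ-INHIB (-0.15 to 0.57). Within batch 1 and batch 2, mean log2 CPM of Tnfaip3 differed by 0.27 and 0.86 from DNC-NONE, by 0.33 and 0.72 from DNC-INHIB and by -0.23 and 0.57 from ENZ-INHIB.

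Nfkbie (ENSMUSG00000023947, chr17:45555703-45563169, plus strand) codes for IkB-epsilon, a cytoplasmic inhibitor. Its group means were 20.9 ± 4.85 CPM (SD, n = 3) for ENZ-NONE, 21.6 ± 1.54 for ENZ-INHIB, 22.9 ± 5.59 for DNC-NONE and 20.6 ± 4.54 for DNC-INHIB. The libraries of all 4 groups overlapped. Its log2 difference was -0.14 against DNC-NONE (95% interval -0.60 to 0.32), -0.09 against ENZ-INHIB (-0.53 to 0.35) and -0.02 against DNC-INHIB (-0.46 to 0.41). A rise of the size seen for Nfkbid lay outside these intervals. Within batch 1 and batch 2, mean log2 CPM of Nfkbie differed from DNC-NONE by 0.22 and -0.82.

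Bcl3 (ENSMUSG00000053175, chr7:19808462-19822770, minus strand) codes for a nuclear IkB-family protein that can act as a coactivator. It was read at 43.8 CPM in ENZ-NONE replicate 6, from 113 UMIs, but at 1.39 and 0.655 CPM in ENZ-NONE replicates 4 and 5, from 3 UMIs and 1 UMI. In DNC-NONE it ranged from 2.80 to 12.8 CPM, in DNC-INHIB from 2.27 to 5.13 and in ENZ-INHIB from 1.58 to 6.31. The ENZ-NONE group thus held both the highest and the lowest libraries of the series. No comparison was called, with log2 values of 1.15, 2.29 and 2.31 against DNC-NONE, ENZ-INHIB and DNC-INHIB and standard errors of 1.17, 1.29 and 1.26. Without ENZ-NONE replicate 6 those 3 Bcl3 values turned to -2.75, -1.62 and -1.60. Within batch 1, mean log2 CPM of Bcl3 in ENZ-NONE differed from DNC-NONE by -2.20, and within batch 2 by 3.18. In the annotation, 161 exon bases of Bcl3 overlap the opposite-strand gene Gm16175, and the strand setting of the counting is not given in the sources used here, so reads from those shared bases cannot be assigned with certainty. The gene has 2475 exon bases in all.

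The 4 subunit genes showed no called difference in any of the 3 comparisons. Nfkb1 (ENSMUSG00000028163, chr3:135584655-135691547, minus strand), the gene of a precursor that is processed to a DNA-binding subunit, was read at 141, 150 and 142 CPM in ENZ-NONE. The other libraries lay between 126 and 158 CPM. Its log2 difference was 0.02 against DNC-NONE (95% interval -0.18 to 0.23), -0.01 against ENZ-INHIB (-0.21 to 0.20) and 0.07 against DNC-INHIB (-0.14 to 0.27). The groups overlapped, and the 3 intervals of Nfkb1 together span -0.21 to 0.27 on the log2 scale.

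Nfkb2 (ENSMUSG00000025225, chr19:46304320-46312385, plus strand), which encodes the precursor subunit of the non-canonical branch, was read at 17.6, 15.7 and 15.1 CPM in ENZ-NONE and between 8.72 and 18.9 CPM elsewhere. Its log2 differences were 0.15, 0.29 and 0.20 against DNC-NONE, ENZ-INHIB and DNC-INHIB, with intervals from -0.36 to 0.78. Of its exon bases, 830 overlap opposite-strand genes, out of 4584, with the same uncertainty as for Bcl3. Rel (ENSMUSG00000020275, chr11:23736847-23770970, minus strand), the gene of c-Rel, a subunit with a transactivation domain, was read at 52.5, 47.8 and 35.6 CPM in ENZ-NONE and between 37.4 and 55.6 CPM elsewhere. ENZ-NONE replicate 6, the highest library for 5 of the 6 inhibitor genes, was the lowest for Rel. The log2 differences of Rel were 0.12, -0.16 and -0.07, with intervals from -0.44 to 0.43. Relb (ENSMUSG00000002983, chr7:19606217-19629438, minus strand), the gene of RelB, the usual partner of processed Nfkb2, was read at 15.3, 16.4 and 15.9 CPM in ENZ-NONE and between 12.6 and 18.7 CPM elsewhere, with log2 differences of -0.04, 0.06 and 0.04 and intervals from -0.46 to 0.46. Within batch 1, mean log2 CPM of the 4 subunits differed between ENZ-NONE and each other group by between -0.18 (Nfkb2) and 0.56 (Nfkb2), and within batch 2 by between -0.50 (Rel) and 0.49 (Nfkb2), with 1 ENZ-NONE library in batch 2.

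**Figure D2:**
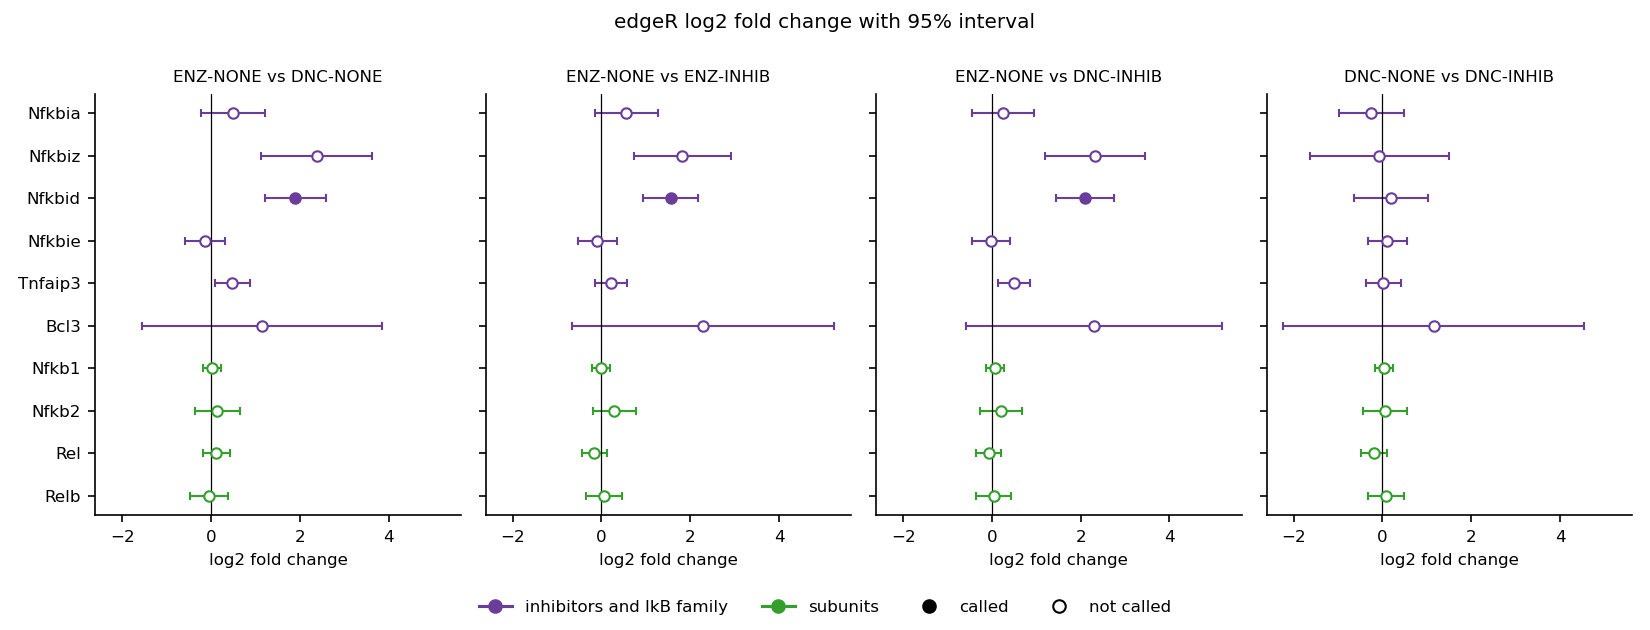
The edgeR log2 fold change of each gene (x axis) with its 95% interval, for ENZ-NONE against each other group and for DNC-NONE against DNC-INHIB, with filled points for called genes, purple for inhibitors and IkB-family genes and green for subunits. Nfkbid alone is filled, at 1.90, 1.57 and 2.10, and all subunits lie near 0.

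Taking the classes as lists, the 6 inhibitors had a median log2 difference of 0.83 against DNC-NONE, 1.064 against ENZ-INHIB and 1.30 against DNC-INHIB. The 4 subunits had medians of 0.07, 0.03 and 0.05, and all genes tested had medians of 0.00231, -0.00345 and 0.00581. Without ENZ-NONE replicate 6 the inhibitor medians were 0.24, 0.17 and 0.25 and the subunit medians 0.12, 0.036 and 0.09. The summed level of the 6 inhibitors was 311 ± 124 CPM (SD, n = 3) for ENZ-NONE, 199 ± 34.1 for ENZ-INHIB, 195 ± 48.9 for DNC-NONE and 219 ± 11.6 for DNC-INHIB. Over ENZ-NONE replicates 4 and 5 alone the inhibitor mean was 239 CPM. The summed level of the subunits was 222 ± 11.4 CPM for ENZ-NONE and 223 ± 6.66, 214 ± 13.1 and 214 ± 6.56 CPM for the others in that order. Per library, the ratio of inhibitor to subunit UMIs was 1.08, 1.01 and 2.17 in ENZ-NONE. It was 0.949, 1.02 and 0.708 in ENZ-INHIB, 1.15, 0.663 and 0.939 in DNC-NONE, and 0.993, 1.05 and 1.02 in DNC-INHIB. The ratio of ENZ-NONE therefore left the range of the other groups in replicate 6 only, and the mean difference from DNC-NONE, 0.505, was 0.130 without that library. Since Nfkbia supplied most inhibitor UMIs, the ratio was also taken without it, and was then 0.367, 0.387 and 0.885 in ENZ-NONE and between 0.234 and 0.343 in the other 9 libraries. Without Nfkbia, ENZ-NONE lay above the other 3 groups, which overlapped one another. Of the 5 genes left in that sum, only Nfkbiz and Nfkbid had all 3 ENZ-NONE libraries above the other 9. Nfkbie, Tnfaip3 and Bcl3 did not, and the ratio without Nfkbiz and Nfkbid was not taken. The separation therefore does not describe the remaining inhibitors as a class. The summed level of Nfkbiz and Nfkbid was 54.2 ± 32.2 CPM for ENZ-NONE, 17.8 ± 4.001 for ENZ-INHIB, 11.8 ± 5.11 for DNC-NONE and 12.1 ± 1.96 for DNC-INHIB, and over ENZ-NONE replicates 4 and 5 alone its mean was 35.6 CPM.

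**Figure D3:**
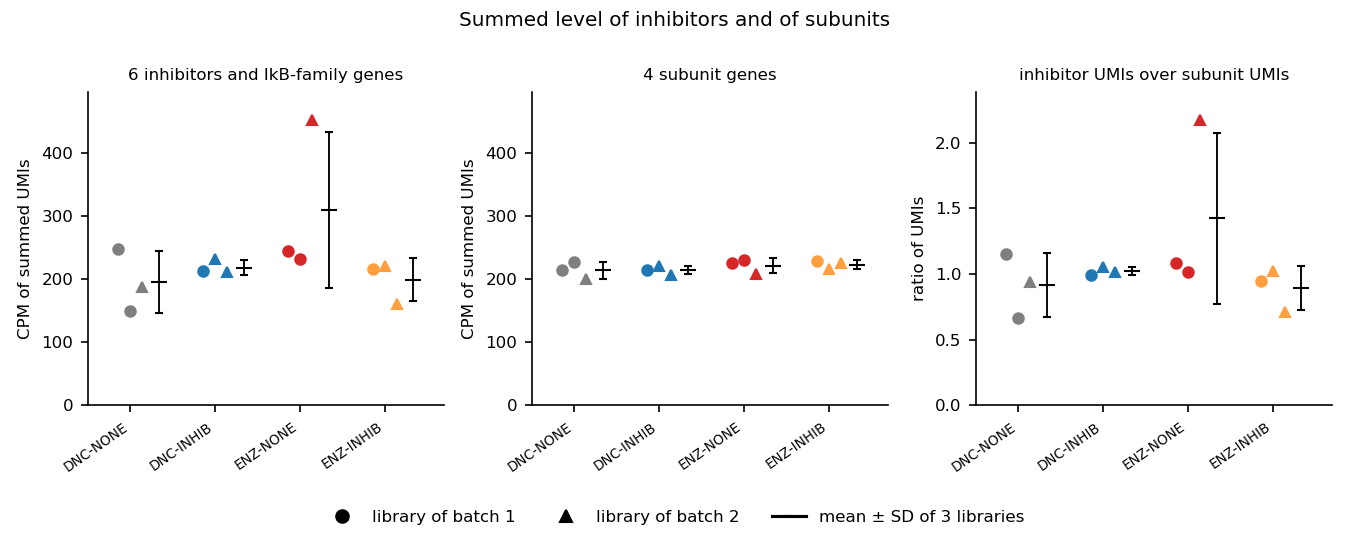
Summed CPM of the 6 inhibitor and IkB-family genes and of the 4 subunit genes on a common y axis from 0, and the ratio of their UMIs, by preparation (x axis), 1 point per library with circles for batch 1, triangles for batch 2 and black bars for the mean ± SD of 3 libraries. Subunit sums are level across groups, and the ENZ-NONE point at a ratio of 2.17 is replicate 6.

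The share of cells with at least 1 UMI was compared after thinning each cell to 1000 UMIs, so that depth did not differ. Nfkbid was read in 1.85%, 1.70% and 3.55% of cells in ENZ-NONE (exact binomial 95% intervals 1.24 to 2.64, 1.03 to 2.64 and 2.73 to 4.52). It was read in 0.956% to 1.40% in ENZ-INHIB, 0.352% to 0.924% in DNC-NONE and 0.518% to 0.778% in DNC-INHIB. Nfkbiz was read in 1.34%, 1.79% and 3.26% of cells in ENZ-NONE (intervals 0.83 to 2.04, 1.10 to 2.75 and 2.48 to 4.204) and in 0.324% to 1.10% elsewhere. These 2 members were again the only ones with all 3 ENZ-NONE libraries above the other 9, which held for 0.81% of all genes tested. Single libraries were often not separated at this depth: the Nfkbid intervals of ENZ-NONE replicates 4 and 5 overlapped those of 6 and 7 of the other 9 libraries, the Nfkbiz intervals those of 8 and 3, and only the intervals of replicate 6 overlapped none. When all deposited barcodes were thinned to 500 UMIs instead, the ENZ-NONE shares of Nfkbid were 0.862% to 1.73%, above the 0.658% of the next library, but those of Nfkbiz were 0.409%, 0.431% and 1.98%, and another library reached 0.533%. The separation of Nfkbiz in shares thus did not hold at that setting. Without thinning, the mean share for Nfkbid was 3.59% for ENZ-NONE, 1.497% for ENZ-INHIB, 0.931% for DNC-NONE and 0.936% for DNC-INHIB. The unthinned means of Nfkbiz in the same order were 3.06%, 1.14%, 0.593% and 0.722%.

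Nfkbia was read in 14.8% ± 2.52 (SD, n = 3) of thinned cells in ENZ-NONE, 11.8% ± 3.28 of those in ENZ-INHIB, 11.8% ± 3.58 of those in DNC-NONE and 14.5% ± 1.63 of those in DNC-INHIB. In the unthinned cells the means of Nfkbia were 19.8%, 16.3%, 14.9% and 19.1% in that order. Among cells with a Nfkbia UMI after thinning, the mean number of its UMIs was 1.31 in ENZ-NONE replicate 6 and 1.07 to 1.20 in the other libraries, so that library had both more positive cells and more UMIs in each. Nfkb1 was read in 12.8% ± 0.993, 13.1% ± 0.999, 12.8% ± 1.60 and 13.5% ± 0.916 of thinned cells in the 4 groups in that order, and unthinned in 17.5%, 19.0%, 16.0% and 17.3%. Tnfaip3 was read in 2.60% and 2.74% of thinned cells after digestion without and with inhibitors and in 1.91% and 1.94% after Dounce without and with them. Bcl3 was read in 4.29% of thinned cells of ENZ-NONE replicate 6 and in at most 0.979% of those of any other library. At least 1 of the 10 members was read in 34.9% to 41.0% of thinned cells in ENZ-NONE and in 30.01% to 35.6% in the other groups. None of the sorted cells can be assumed to lack these RNAs, so the share that free RNA alone would give was not estimated, and intervals cover counting error only.

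**Figure D4:**
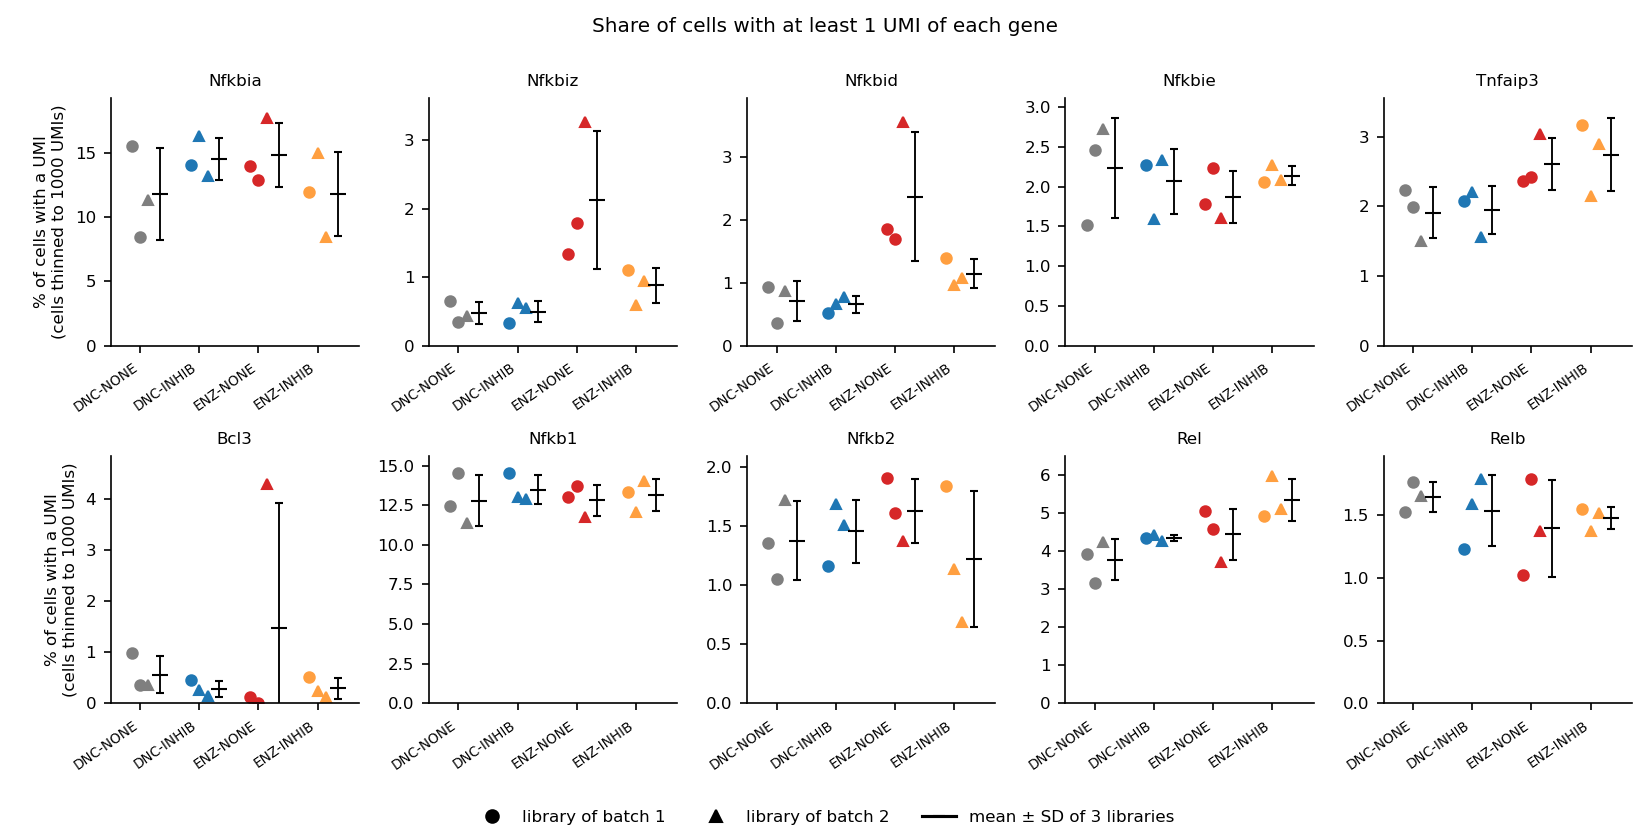
Percent of cells with at least 1 UMI of each gene after thinning each cell to 1000 UMIs (y axis, from 0) in the 4 preparations (x axis), 1 point per library with circles for batch 1, triangles for batch 2 and black bars for the mean ± SD of 3 libraries (the Bcl3 bar is drawn down to 0). For Nfkbid the ENZ-NONE points lie at 1.70% to 3.55%, above the 1.40% of the next library.

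The remaining comparisons ask whether the cocktail acted in the cold preparation and whether digestion with it resembled Dounce. For DNC-NONE against DNC-INHIB, none of the 10 members was called and neither was any other gene tested (0%), with 435 genes at an unadjusted p under 0.05 in edgeR and 1 gene called by DESeq2. Member differences there ran from -0.25 (Nfkbia) to 1.16 (Bcl3), and that of Nfkbid was 0.19 (95% interval -0.64 to 1.03). For ENZ-INHIB against DNC-INHIB, 0 of the 10 was called by edgeR or by DESeq2, and 0 of the 10 had an unadjusted p under 0.05, beside 0.202% of all genes called. For ENZ-INHIB against DNC-NONE, 0 of the 10 was called by either tool, and 0 had an unadjusted p under 0.05, beside 0.172% of all genes called. Nfkbid in ENZ-INHIB stood 0.53 above DNC-INHIB (-0.23 to 1.29) and 0.34 above DNC-NONE (-0.47 to 1.14) on the log2 scale, and both intervals span 0. Whether the cocktail had a different effect in digestion than in Dounce was tested as an interaction, in which 0 of the 10 was called by edgeR or DESeq2 and 1 had an unadjusted p under 0.05, beside 0.0607% of all genes called. The interaction of Nfkbid was 1.37 on the log2 scale (95% interval 0.32 to 2.42, edgeR adjusted p = 1.00) and that of Nfkbiz was 1.88 (-0.03 to 3.79).

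Cells were clustered without the 10 members and without the study's activation genes, so the members did not enter the clustering themselves. Known NF-kB target genes such as Ccl2 and Ier3 were not left out, and both were among the leading genes of cluster 4. Member levels in that cluster may therefore not be independent of how it was formed. In microglia-like cells, Nfkbid was read at 27.2 CPM of the UMIs of those cells, without TMM scaling, in ENZ-NONE (exact Poisson 95% interval 23.2 to 31.6 for counting error over the pooled cells, libraries from 15.1 to 37.9) and at 9.70 in ENZ-INHIB, 7.94 in DNC-NONE and 7.11 in DNC-INHIB. Fitted on microglia-like cells alone, Nfkbid remained called against all 3 groups (1.80, 1.48 and 1.94, edgeR adjusted p = 0.00336, 0.0121 and 0.000396) and Nfkbiz was not called (2.18, 1.77 and 2.23). In ENZ-NONE replicate 6, cluster 4 held 45.5% of the cells. It carried 61.4% of that library's Nfkbia UMIs, 61.2% of its Nfkbiz and 50.4% of its Nfkbid. It also carried 66.7% of its Tnfaip3, 66.4% of its Bcl3 and 34.1% of its Nfkbie. For the subunits the values were 42.8% for Nfkb1, 43.5% for Rel, 56.4% for Nfkb2 and 56.1% for Relb. Members of both classes thus lay above and below the share of cells. In the cells outside cluster 4, an alternative chosen after seeing the data, Nfkbid stood at 22.3, 16.6 and 38.7 unscaled CPM in ENZ-NONE and at no more than 10.7 in any other library. Nfkbiz stood at 11.6, 15.2 and 31.9 against at most 9.61. Both genes therefore kept their separation when that cluster was set aside. Fitted on those cells, Nfkbid was called against all 3 groups (1.80, 1.40 and 1.92, edgeR adjusted p = 0.00163, 0.0106 and 0.000188). Nfkbiz was then called against DNC-NONE (2.21, edgeR adjusted p = 0.0127) and DNC-INHIB (1.89, edgeR adjusted p = 0.0107) but not against ENZ-INHIB (1.44, edgeR adjusted p = 0.156). Nfkbia outside cluster 4 differed by 0.24, 0.30 and 0.01 and Tnfaip3 by 0.19, -0.06 and 0.22 from DNC-NONE, ENZ-INHIB and DNC-INHIB. Bcl3 stood at 25.8 unscaled CPM outside cluster 4 in ENZ-NONE replicate 6, so its high value was not limited to that cluster.

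**Figure D5:**
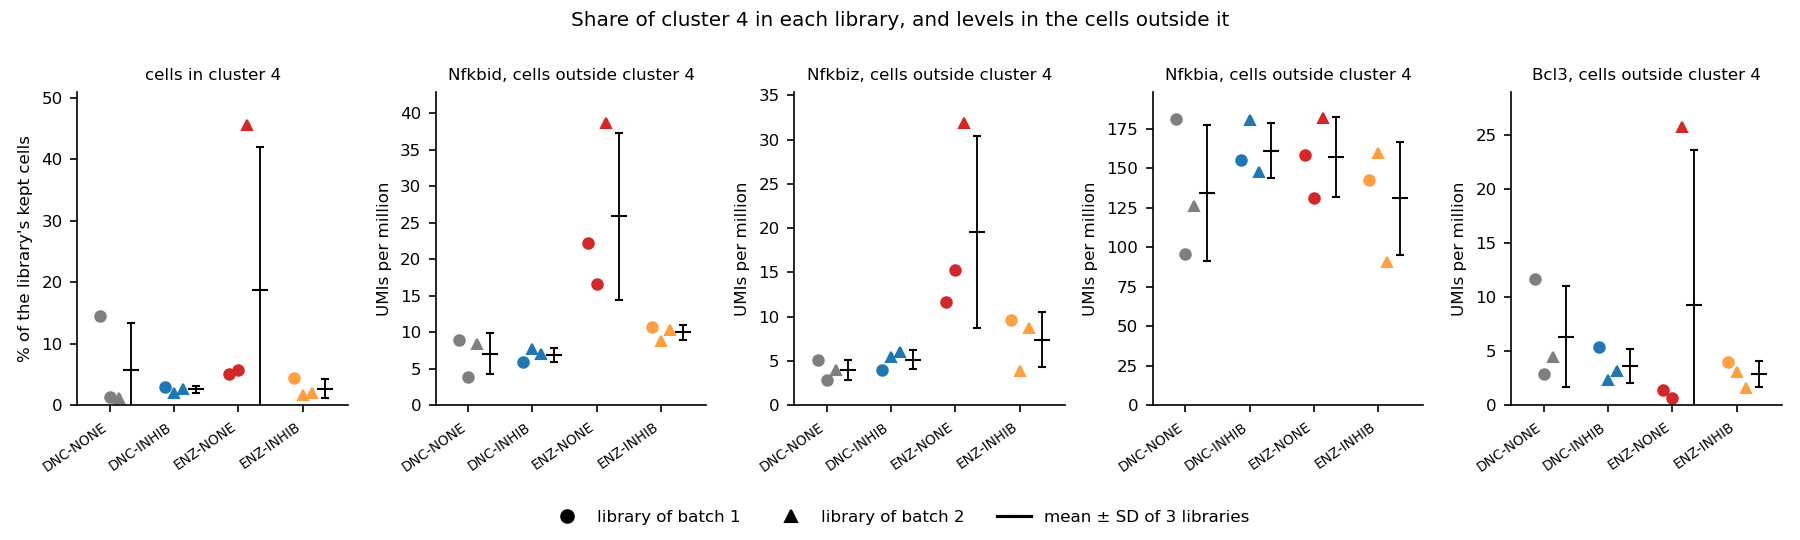
Percent of each library's kept cells in cluster 4, and unscaled CPM of Nfkbid, Nfkbiz, Nfkbia and Bcl3 in the cells outside it (y axes, from 0), by preparation (x axis), 1 point per library with circles for batch 1, triangles for batch 2 and black bars for the mean ± SD of 3 libraries (bars drawn down to 0 where they would pass it). ENZ-NONE replicate 6 stands out at 45.5% of cells, and the ENZ-NONE points of Nfkbid and Nfkbiz stay above the others outside the cluster.

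A small cluster of 359 cells led by H2-Aa, H2-Ab1, Cd74, Cd209a, Pf4 and Mrc1 (cluster 7), which carries genes of antigen presentation and of border macrophages and was given no name, showed the same nuclear IkB-family genes. There, Nfkbid gave 22 UMIs in the 76 cells of ENZ-NONE, 148.6 unscaled CPM (exact Poisson 95% interval 93.1 to 225). It gave 1 UMI in 113 cells of DNC-NONE and 0 in 100 cells of DNC-INHIB and 70 cells of ENZ-INHIB, which allow up to 18.3 and 31.0 unscaled CPM. Nfkbiz gave 29 UMIs in ENZ-NONE, 195.8 unscaled CPM (131 to 281), against 58.8 unscaled CPM in ENZ-INHIB, 14.9 in DNC-INHIB and 0 UMIs in DNC-NONE, which allow up to 19.1. Nfkbia gave 587 unscaled CPM in ENZ-NONE (471 to 725), against 92.4 in ENZ-INHIB, 178 in DNC-INHIB and 150.5 in DNC-NONE, but its ENZ-NONE libraries ran from 176 to 758 and the lowest lay inside the ranges of DNC-NONE (up to 243) and DNC-INHIB (up to 201). In ENZ-NONE each library was above 0 in this cluster, with Nfkbid at 78.3 to 195.3 and Nfkbiz at 130.6 to 241 unscaled CPM. For Nfkbiz this overlapped ENZ-INHIB, whose libraries ran from 0 to 162 unscaled CPM. Nfkb1 stood there at 108 unscaled CPM in ENZ-NONE (61.8 to 175) and at 109 to 156 in the other groups. The intervals cover counting error only, and no test was made in so few cells.

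Whether members were read in the same cells was described after thinning. Inhibitor and subunit genes did not separate in this respect. Tnfaip3 and the subunit gene Relb were each read more often in cells with a Nfkbia UMI than in those without one in 10 of the 12 libraries, Nfkb2 in 9, Nfkbiz, Nfkbid and Bcl3 in 8, Rel in 7, Nfkbie in 6 and Nfkb1 in 4. For Tnfaip3 the shares were 5.50% against 2.50% of cells in ENZ-NONE replicate 6 and 3.65% against 2.15% in ENZ-NONE replicate 4. In ENZ-NONE replicate 5 they went the other way, 2.08% against 2.46%. For Nfkb1 they were 11.7% and 11.7% in ENZ-NONE replicate 6. In that library Bcl3 was read in 6.80% of Nfkbia-positive and 3.75% of other cells, and Nfkbiz in 6.47% and 2.57%. The Nfkbiz shares were 1.37% and 1.33% in ENZ-NONE replicate 4 and 0.694% and 1.95% in ENZ-NONE replicate 5. Nfkbiz and Nfkbid were each rare, so few cells held both. In ENZ-NONE replicate 6, 4 of the 57 Nfkbiz-positive cells held a Nfkbid UMI, 7.02% against 3.43% of the other cells. None of the 21 and 20 Nfkbiz-positive cells of replicates 4 and 5 held one, against 1.87% and 1.73% of the other cells. These cells were too few to show a difference in either direction. With 1 to 2 UMIs per gene and cell, these shares describe which molecules were captured.

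In the rest of the pathway, 1 gene was called in the ENZ-NONE comparisons. Of 3 other subunits and inhibitors (Rela, Nfkbib and Nfkbil1), none was called against any group, and Rela, the gene of the main transactivating subunit, stood at 84.3 ± 5.09 CPM in ENZ-NONE (SD, n = 3), 87.5 ± 15.9 in ENZ-INHIB, 74.7 ± 5.89 in DNC-NONE and 80.2 ± 1.27 in DNC-INHIB. Of 25 adaptors and kinases that carry the signal to the IkB proteins, 22 were tested and 0 was called in the 3 ENZ-NONE comparisons, with medians of -0.05, -0.00308 and 0.01 against DNC-NONE, ENZ-INHIB and DNC-INHIB. Of 12 other negative regulators, 11 were tested and 0 was called, with medians of -0.00360, -0.08 and 0.05. Of 29 known target genes, 18 were tested and 1 was called higher and 0 lower in each comparison, beside 0.465%, 0.293% and 0.739% of all genes called. The medians of the 18 were 0.40, 0.35 and 0.45, beside all-gene medians of 0.00231, -0.00345 and 0.00581. Each time 14 of the 18 lay above 0. The target list includes Ccl2 and Ier3, which were among the genes leading cluster 4. These list values were not taken without ENZ-NONE replicate 6. The called target was Ccl3, a chemokine gene, at 209 to 585 CPM in ENZ-NONE and at most 43.8 CPM in the other groups. Ccl3 rose by 3.16, 4.17 and 3.78 on the log2 scale (edgeR adjusted p = 0.0377, 0.0186 and 0.0103), and it too belongs to the study's activation list chosen on these samples.

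The genes whose log2 CPM over the 12 libraries was most like that of Nfkbia were Ccl2 (Pearson r = 0.905), Tsc22d2 (0.890), D6Wsu163e (0.884), Fkbp2 (0.876) and Id2 (0.871). The libraries share groups and batches, so these values are a description. ENZ-NONE replicate 6 had the highest Nfkbia level, 269 CPM, and the correlations were not taken without that library. Ccl2, a chemokine gene, ranged from 21.0 to 177 CPM in ENZ-NONE and from 3.57 to 57.8 CPM in the other groups, so that the groups overlapped.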

How the data were processed

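Myeloid cells of 12 mice were profiled with 10X Genomics 3' version 2 chemistry. The authors deposited raw, not normalized UMI counts, as 1 matrix of genes by cells per animal from Cell Ranger 3.0.0 on mm10 (GRCm38). The strand setting is not given in the sources used here, and 0 per-sample columns were unmapped. Cells with at least 500 genes, 1000 UMIs and at most 10% mitochondrial UMIs were kept. A doublet rule (at least 3 genes and 5 UMIs from markers of neurons, other glia, vessels or red blood cells) removed 4 more cells (0.0212%), so it did not work as a doublet caller and most doublets remain. Counts were summed per library and tested with edgeR 4.0.16 (TMM, low-count filter, quasi-likelihood F test, all 12 libraries in 1 fit, Benjamini-Hochberg over 9882 genes). DESeq2 1.42.0 and the other settings named in the closing section were alternatives, of which the cells outside cluster 4 and the alternatives of the inhibitor-to-subunit ratio were added after seeing the data. Clusters came from scanpy 1.11.5 (2000 variable genes, 30 components, 20 neighbours, Leiden resolution 1), leaving out 42 genes (the members and the study's activation lists). Genes with symbols starting with mt-, Rps, Rpl or Hist were also left out, as were Malat1, Gm42418 and AY036118. The scripts were tested on simulated data. Members, lists and settings were chosen with earlier results of these data known. All 10 members are named, as are pathway genes called in an ENZ-NONE comparison and the 5 genes most correlated with Nfkbia. Rela, Nfkbib and Nfkbil1 were named in addition, after their values were seen, as the whole of a short list. Positions are from GENCODE vM21, 1-based. Total kept UMIs were 1059783 to 3233159 per library, which sets the counting error of low genes such as Bcl3 and Nfkbiz. Replicate pairs differed beyond sampling noise (chi-square per degree of freedom 1.60 to 6.50), so each library counted once.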

Additional observations from a re-analysis of the deposited data

How the results depend on the processing

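Alternative fold changes were counted for all members in the 3 ENZ-NONE comparisons and for Nfkbid and Nfkbiz alone in the other comparisons. Of these values, 733 kept direction and side of the threshold, 17 became called, 7 lost the call and 44 turned sign, none of the last being called. The number of members called in ENZ-NONE against DNC-NONE (1) became 2 with no low-count filter, in cells thinned to 1000 UMIs, outside cluster 4 and with DESeq2, and 0 with only the 2 groups in the fit. Against ENZ-INHIB it became 2 with no low-count filter and with DESeq2, and 0 in thinned cells and with only the 2 groups. Against DNC-INHIB it became 2 with no low-count filter, a batch covariate, thinned cells, cells outside cluster 4 and DESeq2. The 2 genes were Nfkbiz and Nfkbid each time. Leaving out each library in turn gave 1 to 2, 0 to 2 and 1 to 2 members called, with 2 in all 3 without ENZ-NONE replicate 4, 2 against DNC-NONE and DNC-INHIB without ENZ-NONE replicate 6, and 0 against ENZ-INHIB without that library or any ENZ-INHIB library. The cause of these changes was not tested.

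Replicate numbers did not pair the samples (same-number correlations of deviations -0.105 to 0.151). With the replicate block, fitted on the 2 groups alone, ENZ-NONE against DNC-INHIB gave 2 members and 104 genes called, against 1 and 59 in the 2-group fit without the block, and ENZ-INHIB against DNC-NONE gave 0 members and 90 genes, against 0 and 19. All-gene calls also moved by more than 1.5 times with no low-count filter (103, 60 and 142 against the 3 groups, from 46, 29 and 73) and with only the 2 groups against DNC-NONE and ENZ-INHIB (23 and 19). For DNC-NONE against DNC-INHIB, 0 became 19 with no low-count filter, 2 with only the 2 groups and 1 with a batch covariate, in microglia-like cells and with DESeq2. For ENZ-INHIB against DNC-INHIB, 20 became 67 with no low-count filter, 51 with only the 2 groups, 36 with a batch covariate, 33 with all barcodes, 13 in thinned cells and 10 with DESeq2. For ENZ-INHIB against DNC-NONE, 17 became 108 with no low-count filter, 27 with all barcodes and 10 in thinned cells. For the interaction, 6 became 16, 10 with a batch covariate and 17 with DESeq2. No member was called in these 4 under any alternative. Leaving out single libraries, all-gene calls spanned 29 to 67 (lowest without DNC-NONE replicate 2), 14 to 39 (14, 16 and 15 without ENZ-INHIB replicate 1, 2 and 3) and 46 to 90 (46 without DNC-INHIB replicate 5 or 6) in the 3 ENZ-NONE comparisons, and 0 to 3, 5 to 36, 1 to 46 and 4 to 10 in the other 4. For ENZ-INHIB against DNC-NONE the 1 came without ENZ-INHIB replicate 2 and the 46 without ENZ-NONE replicate 6.

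Within the members and comparisons counted above, signs turned only for values that were not called. Against DNC-NONE with all deposited barcodes, Nfkbie was 0.064 and Relb 0.018. Against ENZ-INHIB, Nfkbie was 0.014 with all barcodes and 0.00727 outside cluster 4, Tnfaip3 -0.063 outside cluster 4, Nfkb1 0.0103 in microglia-like cells and 0.042 outside cluster 4, and Relb -0.029 in thinned cells, -0.057 in microglia-like cells and -0.071 outside cluster 4. Against DNC-INHIB, Nfkbie was 0.0123 in microglia-like cells and 0.17 outside cluster 4, Nfkb1 -0.011 and Rel 0.016 in thinned cells, and Relb -0.15 in thinned cells, -0.13 in microglia-like cells and -0.059 outside cluster 4. For DNC-NONE against DNC-INHIB, Nfkbiz was 0.22 with a batch covariate, 0.14 with all barcodes and 0.054 in microglia-like cells. Leaving out single libraries, values against DNC-NONE spanned -0.37 to 0.082 for Nfkbie, -2.75 to 2.15 for Bcl3, -0.0499 to 0.093 for Nfkb1, -0.011 to 0.30 for Rel and -0.11 to 0.024 for Relb. Against ENZ-INHIB they spanned -0.23 to 0.10 for Nfkbie, -1.62 to 2.84 for Bcl3, -0.064 to 0.053 for Nfkb1, -0.29 to 0.015 for Rel and -0.00198 to 0.10 for Relb. Against DNC-INHIB they spanned -0.079 to 0.41 for Nfkbia, -0.19 to 0.16 for Nfkbie, -1.60 to 2.85 for Bcl3, -0.21 to 0.10 for Rel and -0.068 to 0.14 for Relb. For DNC-NONE against DNC-INHIB they spanned -0.62 to 0.10 for Nfkbiz and -0.0696 to 0.39 for Nfkbid. Bcl3 fell under the low-count filter in thinned cells, in the 2-group fits and in the block fits and has no value there.

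The difference in share of cells between ENZ-NONE and DNC-NONE was 1.65 percentage points for Nfkbiz and Nfkbid in thinned cells, 1.09 and 1.061 in thinned cells without ENZ-NONE replicate 6, 2.47 and 2.66 without thinning, and 0.575 and 0.707 with all barcodes thinned to 500 UMIs. Depth limits Bcl3, Nfkbiz and Nfkbid most, with 1 to 121 UMIs per library.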
